A study of Oryza sativa with 10 samples.

Results

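The distal arms of rice chromosomes 1 to 3, taken as gene-rich, were examined for G-quadruplex capture as 6 stretches, defined by their coordinates and set with earlier results of these data known. They ran from 1 to 10 Mb and from 33 to 42 Mb on chromosome 1, from 1 to 10 Mb and from 26 to 34.9 Mb on chromosome 2, and from 1 to 10 Mb and from 26.4 to 35.4 Mb on chromosome 3, 53.9 Mb in all. Peaks whose midpoint lay there numbered 6054 of 49898 in the BioCyTASQ in vitro list, 3648 of 29443 in the one named for BioTASQ in vitro and 8264 of 57500 in the BioTASQ in vivo list. Together these were 17966 of 136841 peaks, or 13.1%, in 14.4% of the 373 Mb spanned by the peaks. The inner part of the same chromosomes, 55.4 Mb between the distal stretches, held 7364, 4663 and 8827 peaks and served as the comparison.

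The material was seedlings of the rice cultivar Nipponbare, 2 weeks old and cross-linked with 1% formaldehyde for 10 min, and 10 libraries in 7 groups were made from it. Each capture, with BioCyTASQ in vitro or with BioTASQ under either label, was sequenced as 2 libraries. The controls were 4 libraries, a biotin and an input library for each condition. The baits were biotin-carrying small molecules recovered on streptavidin beads, and the labels give the condition only as vitro or vivo. Peaks were deposited as 1 list per capture and none per library, so no value has an error between seedlings, and the spread over the 6 arm ends is given in its place. The list deposited for the antibody BG4 held the same 29469 rows as that for BioTASQ in vitro, with 0 rows different, and no library was labelled as BG4. It was therefore used once and is called the BG4/BioTASQ in vitro list. Its peak names carry the words K, PEG and flag and no bait, while the peak names of the other lists carry the word biotin.

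A G-quadruplex is a structure in which guanines from several runs of a strand stack as planar quartets held by potassium. TASQs, template-assembled synthetic G-quartets, carry guanines that can assemble into such a quartet and stack on the folded DNA, and BG4 is an engineered antibody fragment against the folded structure. In rice, genes are generally denser towards the chromosome ends and retrotransposons denser around the centromeres, and many rice genes are rich in guanine and cytosine near their start. Gene content, sequence and guanine runs were not analysed here, because no source used here gives the build of the deposited coordinates. The word gene-rich was therefore not checked against these data, and no gene is named at any peak.

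Both in vitro lists were thinner in the distal arms than in the inner part, and the in vivo list was nearly even. For BioCyTASQ in vitro, the chromosome 1 stretches held 115 peaks per Mb at the low-coordinate and 106 at the high-coordinate end, those of chromosome 2 held 112 and 120, and those of chromosome 3 held 107 and 113. The adjoining inner sections held 154 and 126 on chromosome 1, 130 and 121 on chromosome 2, and 119 and 141 on chromosome 3. Each distal stretch lay below its own inner section, though the 2 sets overlapped slightly, the highest distal value being on chromosome 2 and the lowest inner value on chromosome 3. Centromere windows were set at 15 to 18 Mb on chromosome 1, 12 to 15 Mb on 2 and 18 to 21 Mb on 3. They lay in the inner sections of the low-coordinate ends of chromosomes 1 and 2, and mostly in the high-coordinate one of chromosome 3. These sections had the highest inner values, 154, 130 and 141. At the other ends distal and inner were 106 and 126, 120 and 121, and 107 and 119. The means were 112.0 ± 5.10 and 132.0 ± 13.5 peaks per Mb (SD, n = 6 arm ends), a difference of −19.5 ± 13.1 (lower at 6 of 6 ends, p = 0.03125, exact two-sided sign-flip permutation test, adjusted p = 0.0469 over 3 lists). With 6 arm ends this is the smallest p the test can give. Without the centromere windows the difference was −19.6 ± 13.7 peaks per Mb, again lower at 6 of 6 ends. Arm ends are stretches of the same libraries and not replicates, so the p describes evenness along the chromosomes only.

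The BG4/BioTASQ in vitro list was also thinner in the distal arms. Its distal stretches held 62.4, 70.9, 70.0, 69.9, 68.0 and 64.9 peaks per Mb, in the order above, and its inner sections 91.0, 73.9, 92.9, 75.1, 81.2 and 92.3. All 6 distal values lay below all 6 inner values. The inner sections with the centromere windows had the highest values, 91.0, 92.9 and 92.3. At the other ends distal and inner were closer, 70.9 and 73.9, 69.9 and 75.1, and 68.0 and 81.2. The means were 67.7 ± 3.34 and 84.4 ± 8.76, a difference of −16.7 ± 11.2 peaks per Mb (lower at 6 of 6 ends, p = 0.03125, exact sign-flip permutation test, adjusted p = 0.0469). Without the centromere windows the difference was −16.3 ± 10.8 peaks per Mb, again lower at 6 of 6 ends. Counted as bases under peaks, both in vitro differences kept their direction and neither passed after adjustment. BioCyTASQ covered 6.12% of the distal and 7.15% of the inner stretches (lower at 5 of 6 ends, p = 0.0938, exact permutation, adjusted p = 0.141). The BG4/BioTASQ in vitro list covered 1.81% and 2.35%, still lower at 6 of 6 ends with p = 0.03125 (exact permutation). Its adjusted p rose to 0.0938 because the BioCyTASQ p was higher by this measure.

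BioTASQ in vivo peaks were about as dense in the distal arms as inside. The distal stretches held 155, 156, 128, 170, 160 and 151 peaks per Mb in the same order, and the inner sections 157, 179, 145, 154, 151 and 161. The distal value was the higher at the high-coordinate end of chromosome 2 and the low-coordinate end of chromosome 3, and the lower at the other 4 ends. The means were 153.0 ± 13.9 and 158.0 ± 11.8, a difference of −4.68 ± 14.9 (p = 0.4375, exact sign-flip permutation test, adjusted p = 0.438), which was not detectable against the spread between arm ends. The low-coordinate end of chromosome 2 was the sparsest distal stretch in vivo and not in either in vitro list.

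**Figure D1:**
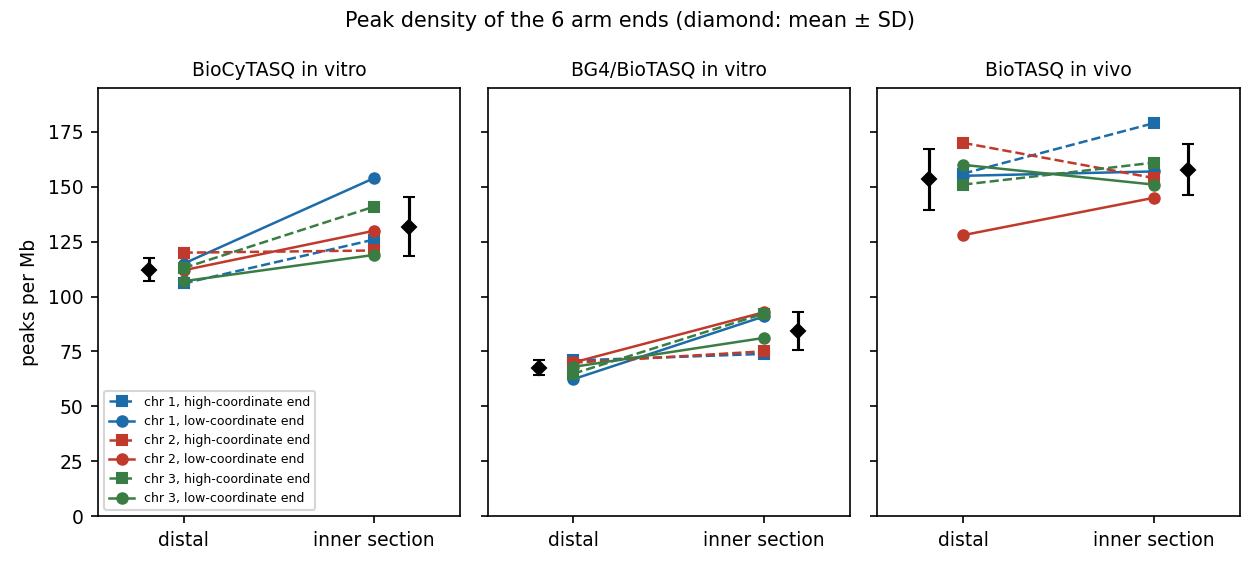
Peaks per Mb (vertical axis, from 0) in the distal stretch and the adjoining inner section of each arm end, 1 line per arm end and 1 panel per list, with the mean ± SD over 6 arm ends as a diamond. Every line climbs from distal to inner in both in vitro panels, whose distal means are 112.0 and 67.7, while the in vivo lines cross.

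How strongly the lists leaned inwards was compared as the log2 ratio of distal to inner density. The ratio of BioTASQ in vivo was above that of BioCyTASQ in vitro by 0.18 ± 0.14 on the log2 scale, at 6 of 6 ends (p = 0.03125, exact sign-flip permutation test), and this did not pass after adjustment over 3 pairs (adjusted p = 0.0938). Against the BG4/BioTASQ in vitro list the in vivo difference was 0.27 ± 0.23 at 5 of 6 ends (p = 0.0625, exact permutation, adjusted p = 0.0938). The in vitro lists differed from each other by 0.09 ± 0.14 (p = 0.15625, exact permutation, adjusted p = 0.156). A single pair at the smallest p cannot pass adjustment over 3 pairs, so the missed threshold decides nothing here. The lists were thus shown neither to differ nor to be alike in their lean.

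Many numbers were missing from the names of the in vivo peaks, for a reason no source used here gives, and more so in the distal arms. Peak names are numbered in order along each chromosome, so the share of numbers listed can be counted. In the in vivo list 60.2% of the numbers spanned by the distal stretches were present, against 65.2% inside. The share was lower at 6 of 6 arm ends, from 56.7% to 63.2% distal and from 62.0% to 67.8% inner. Rows with a summit beyond their own end were 27.4% of distal and 23.7% of inner in vivo rows. In the BioCyTASQ list the numbers present were 96.1% and 95.4%, and in the BG4/BioTASQ in vitro list 99.8% and 98.9%. Taking the numbers spanned in place of the rows, a measure added after the data were examined, the in vivo list had 233.0 per Mb distal and 224.0 inner (higher at 4 of 6 ends, p = 0.344, exact permutation). The sign of the small in vivo difference thus depended on whether the missing numbers were counted, whereas both in vitro differences kept their sign and their call by that measure.

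**Figure D2:**
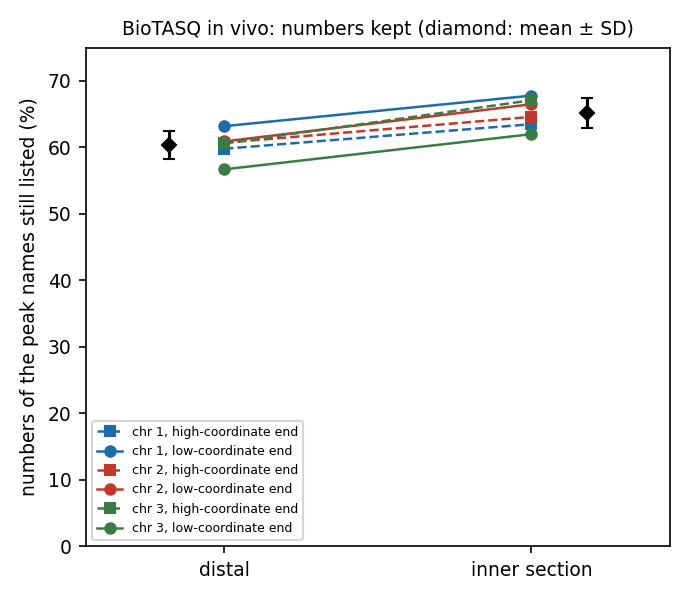
Percent of the numbers in the BioTASQ in vivo peak names that are listed (vertical axis, from 0), in the distal stretch and the inner section of each arm end, with the mean ± SD over 6 arm ends as a diamond. All 6 lines climb from the distal stretch, at 56.7% to 63.2%, to the inner section, at 62.0% to 67.8%.

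Across the boundary itself the mean densities were close. Within the distal arms the means of both in vitro lists fell at each step over the first 5 windows. They reached 103.0 for BioCyTASQ and 63.3 for BG4/BioTASQ in vitro, and were 106.0 and 73.2 in the 6th. The in vivo means had no such steady order. In the first 1 Mb on the distal side of the boundary BioCyTASQ had 128.0 peaks (104 to 154 over 6 ends). In the first 1 Mb on the inner side it had 129.0 (101 to 170). The BG4/BioTASQ in vitro list had 73.8 (63 to 87) and 80.5 (53 to 104), and BioTASQ in vivo 156.0 (130 to 186) and 167.0 (143 to 204). These neighbouring windows overlapped in range for every list. In the 8th window from the boundary the means were 97.7, 60.7 and 136.0 peaks, in the order BioCyTASQ, BG4/BioTASQ in vitro and BioTASQ in vivo, the lowest step for the first and the last. In the 9th, at 5 of the ends, they were 107.0, 57.4 and 148.0. The in vivo means of the 2nd and 3rd windows, 166.0 and 164.0, and that of the 4th were above that of the first. These positions are a description and were not tested.

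**Figure D3:**
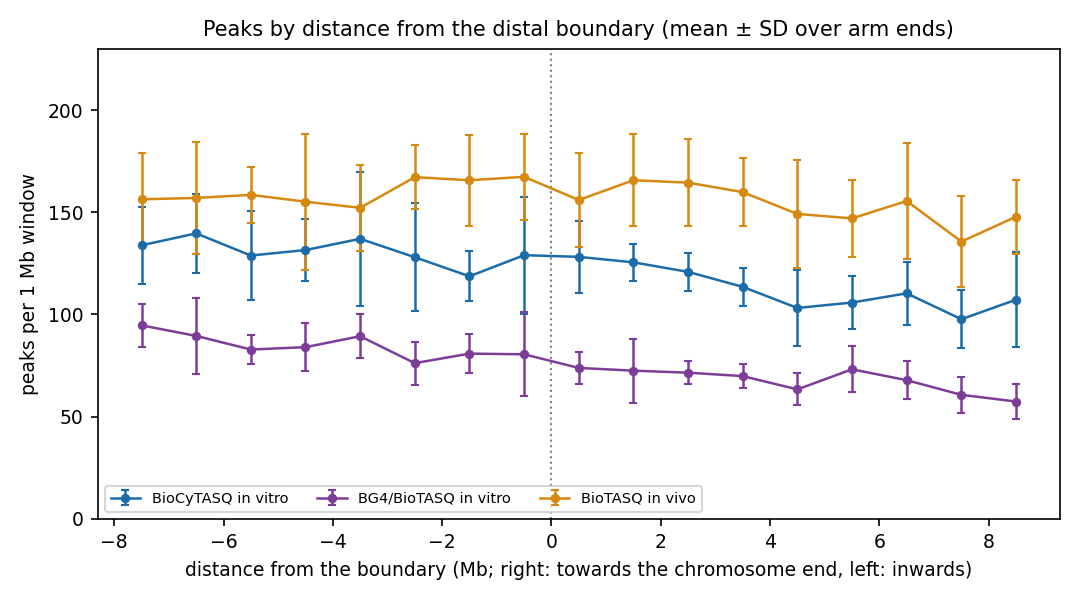
Peaks per 1 Mb window (vertical axis, from 0) against distance from the boundary in Mb, with the distal arms to the right of the dotted line and the inner part to the left. Points are means and bars SD over 5 or 6 arm ends. The BioCyTASQ mean goes from 128.0 beside the boundary to 97.7 in the 8th distal window and is 107.0 in the 9th.

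The 53 full distal windows of 1 Mb differed among themselves. BioCyTASQ had from 70 to 154 peaks in a window (median 113.0), BG4/BioTASQ in vitro from 43 to 90 (median 69.0) and BioTASQ in vivo from 103 to 205 (median 154.0). The coefficients of variation were 15.1%, 15.1% and 14.6%, close to each other. Peaks of all lists were also merged into regions, a region being any run of overlapping rows. Windows with the most regions lay on chromosome 2 at 27 to 28 Mb and on chromosome 3 at 8 to 9 Mb, with 267 each. The window with the fewest, 177, lay on chromosome 1 at 40 to 41 Mb, where BioTASQ in vivo was at its lowest of 103. On the low-coordinate ends the fewest regions were 190 at 5 to 6 Mb of chromosome 1, 184 at 5 to 6 Mb of chromosome 2 and 191 at 1 to 2 Mb of chromosome 3.

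Window densities of the lists were correlated to different degrees, and all 3 pairs had positive coefficients in the distal windows. Over the 53 distal windows Spearman's rho was 0.61 between BioCyTASQ in vitro and BioTASQ in vivo, 0.37 between the in vitro lists and 0.28 between the BG4/BioTASQ in vitro and the in vivo list. Over 54 inner windows the same values were 0.18, 0.49 and −0.19. Neighbouring windows share libraries, controls and base composition, so these are descriptions with no test, and their differences between distal and inner windows were not tested.

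Stretches without any peak were short in the distal arms. The longest gap between merged regions of a distal stretch was 41055 bp, on chromosome 1 from 9114175 to 9155229, and the other 5 stretches had longest gaps of 34004 to 40906 bp. The inner sections had longest gaps of 30156 to 74408 bp, the longest being on chromosome 2 from 14682864 to 14757271. Within pairs, the distal gap was the longer at the low-coordinate end of chromosome 1, 41055 against 39144 bp. It was also the longer at that end of chromosome 3, 40045 against 30156 bp. At the other ends the inner gap was the longer. The typical spacing was wider in the distal arms in 5 of the 6 pairs, with median gaps of 2104 to 2627.5 bp against 1703 to 2322 bp, the exception being the high-coordinate end of chromosome 2.

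Regions holding a peak of every list made up a smaller share in the distal arms. The peaks of such a region need not all touch each other. The distal stretches held 12015 merged regions and the inner part 13394. A peak of all 3 lists was present in 787 distal regions (6.55%) and in 1264 inner regions (9.44%). Over arm ends the share was 6.55 ± 0.569% and 9.46 ± 2.06%, a difference of −2.91 ± 2.38 percentage points (lower at 6 of 6 ends, p = 0.03125, exact sign-flip permutation test). At the high-coordinate end of chromosome 1 the difference was only −0.0722 points, and the widest, −6.20 points, was at the high-coordinate end of chromosome 3. With 200 bp windows at the row centres it was −1.80 points at 5 of 6 ends and no longer passed (p = 0.0625, exact permutation). As the only result of its kind, its p was not adjusted. Both in vitro lists also covered less of the distal arms, and this share was not set against the covered percent.

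Every kind of region with a BG4/BioTASQ in vitro peak and a partner took a lower share in the distal arms, and so did BioCyTASQ alone. Regions of both in vitro lists without an in vivo peak made up 2.37% of distal and 4.45% of inner regions, with a lower share at 6 of 6 ends. Regions of the BG4/BioTASQ in vitro and the in vivo list without BioCyTASQ made up 3.36% and 3.96%, also lower at 6 of 6 ends. Regions of the BG4/BioTASQ in vitro list alone were as frequent per Mb in both places, 38.2 and 37.5. As a share of regions they made up 17.1% and 15.5%, higher at 4 of 6 ends. Regions of BioCyTASQ and BioTASQ in vivo together were likewise level per Mb, at 57.8 and 57.0. Their share was 25.9% and 23.6%, higher at 4 of 6 ends. Regions of BioTASQ in vivo alone were at 66.3 and 63.4 per Mb, or 29.8% and 26.2%, with a higher share at 5 of 6 ends. BioCyTASQ alone held 33.2 per Mb distal and 40.7 inner, or 14.9% and 16.9% of regions, with a lower share at 5 of 6 ends. The densities and shares of the kinds given here were not tested.

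The share of each list that touched another list by at least 1 bp showed the same from the side of the peaks. Of the BioCyTASQ peaks, 16.8 ± 2.12% of the distal and 24.5 ± 5.13% of the inner touched a BG4/BioTASQ in vitro peak, lower at 5 of 6 ends (p = 0.0625, exact sign-flip permutation test, adjusted p = 0.0938 over 6 overlaps). The exception was the high-coordinate end of chromosome 1, with 20.1% distal and 19.1% inner. Of the in vivo peaks, 13.0 ± 1.59% of the distal and 19.5 ± 3.9% of the inner touched a BG4/BioTASQ in vitro peak, lower at 6 of 6 ends (p = 0.03125, exact permutation, adjusted p = 0.0625). In the other direction, 30.1 ± 2.79% of distal and 41.4 ± 6.88% of inner BG4/BioTASQ in vitro peaks touched a BioCyTASQ peak, and 30.4 ± 1.49% and 37.3 ± 3.09% touched an in vivo peak, both lower at 6 of 6 ends (p = 0.03125, exact permutation, adjusted p = 0.0625). The share on BioCyTASQ peaks differed most where the inner section held the centromere window, at 31.3% and 47.7%, 28.9% and 46.0%, and 25.3% and 49.0%. At the other ends distal and inner were 33.5% and 35.3%, 31.4% and 35.4%, and 29.9% and 34.7%. Without the centromere windows the mean difference was −9.39 ± 6.65 percentage points. None of the overlaps passed after adjustment, and the 4 with the BG4/BioTASQ in vitro list passed under several alternatives, among them 50% reciprocal overlap. Over 6 overlaps, any passes only where several reach the smallest p, so passing or failing does not measure the size of a difference.

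BioCyTASQ in vitro and BioTASQ in vivo overlapped each other about as much in the distal arms as inside. Of the BioCyTASQ peaks, 65.7 ± 1.87% of the distal and 61.5 ± 4.54% of the inner lay on an in vivo peak (higher at 5 of 6 ends, p = 0.09375, exact permutation, adjusted p = 0.113). Of the in vivo peaks, 51.9 ± 4.33% and 54.1 ± 2.96% lay on a BioCyTASQ peak (lower at 5 of 6 ends, p = 0.1875, exact permutation, adjusted p = 0.188). Neither difference passed the test. At the low-coordinate end of chromosome 1 the BioCyTASQ share was 68.2% distal against 54.8% inner, the widest contrast of any arm end.

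**Figure D4:**
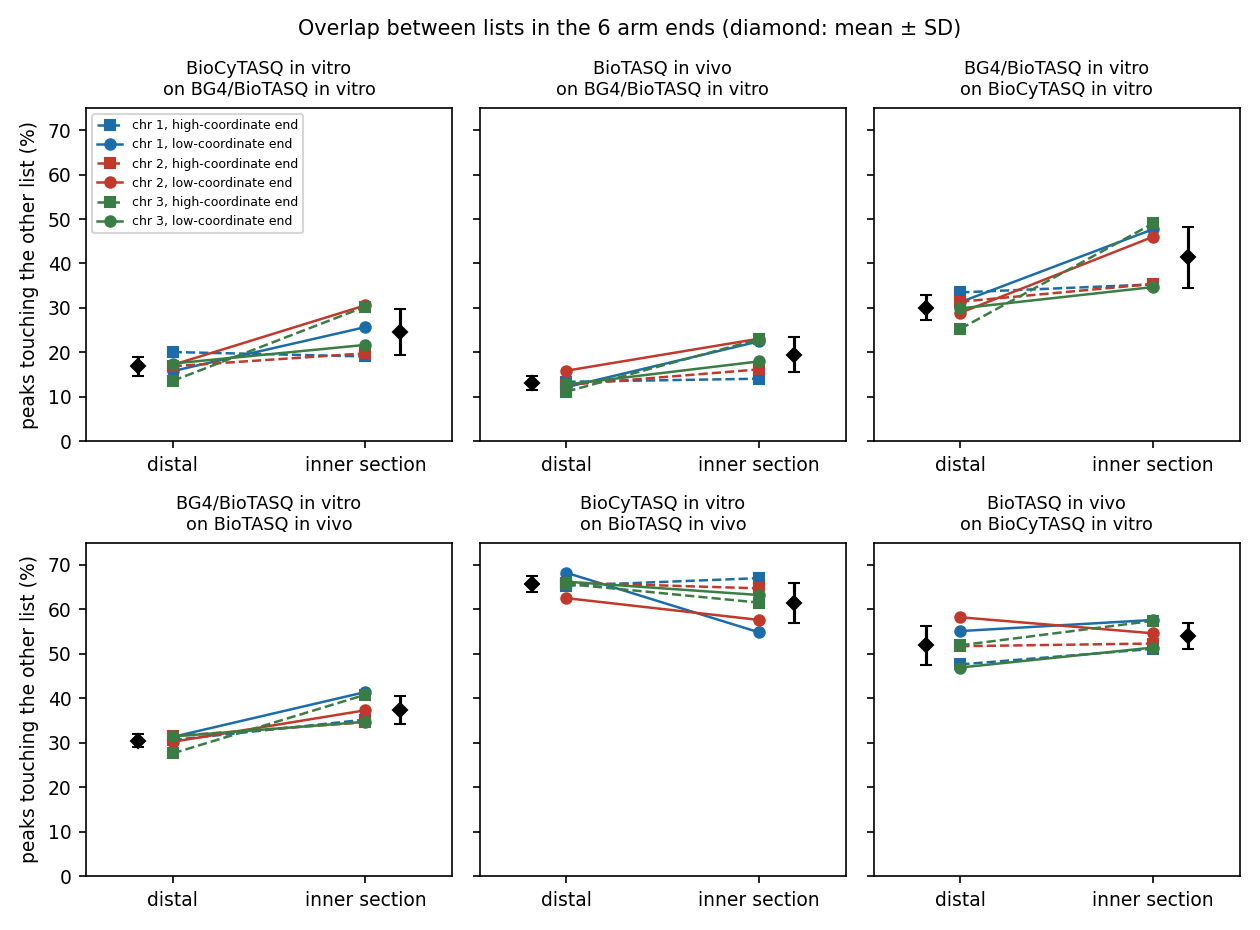
Percent of the peaks of the first-named list that touch a peak of the second-named list (vertical axis, from 0) in the distal stretch and inner section of each arm end, with the mean ± SD over 6 arm ends as a diamond. The 4 panels with the BG4/BioTASQ in vitro list have lower distal means, such as 30.1% against 41.4%, while the panels of BioCyTASQ and BioTASQ in vivo differ little.

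A peak touches another list less often by chance where that list covers less, so midpoints inside the other list were also set against the percent it covered. This measure was added after the data were examined. Distal BioCyTASQ midpoints fell in BG4/BioTASQ in vitro peaks 3.33 times as often as the covered share, against 4.71 times inside. For in vivo midpoints in the same list the factors were 3.05 and 3.77. For BG4/BioTASQ in vitro midpoints they were 3.62 and 4.50 in BioCyTASQ peaks, and 2.77 and 3.39 in in vivo peaks. The distal factors were the lower in these 4 cases, at 5 or 6 of 6 ends, with adjusted p from 0.125 to 0.141 (exact permutation), so these differences did not pass. The BioCyTASQ and in vivo midpoints had factors in each other's peaks of 8.53 and 7.49 distal against 7.86 and 6.84 inside. Both were higher at 4 of 6 ends and did not pass (adjusted p = 0.281 for each, exact permutation). The factors given are pooled over the stretches, while the tests used log2 factors of each arm end.

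Densities were also split by the level of the control. The control level, the number of fragments the peak caller expected at a summit, could be recovered from fold enrichment and −log10 p for the BioCyTASQ and in vivo lists. Peaks of both stretches were put in 3 equal groups by it, with limits of 10.3 and 15.6 fragments for BioCyTASQ. BioCyTASQ peaks in the low group numbered 40.0 per Mb distal and 41.8 inner, lower at 3 of 6 ends. In the middle group they numbered 37.9 and 43.9, and in the high group 34.4 and 47.3, both lower at 6 of 6 ends. The BioCyTASQ gap was widest among peaks with a high control level. In vivo peaks, with limits of 15.7 and 16.7 fragments, numbered 54.9 per Mb distal and 48.8 inner in the low group, where 1 of 6 ends was lower. In the middle group they numbered 53.5 and 51.5, again with 1 of 6 ends lower. In the high group they numbered 45.0 and 59.1, lower at 6 of 6 ends. These densities are per Mb of the whole stretch, and the amount of sequence at each control level was not measured. The part of the control level in the densities was not tested.

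**Figure D5:**
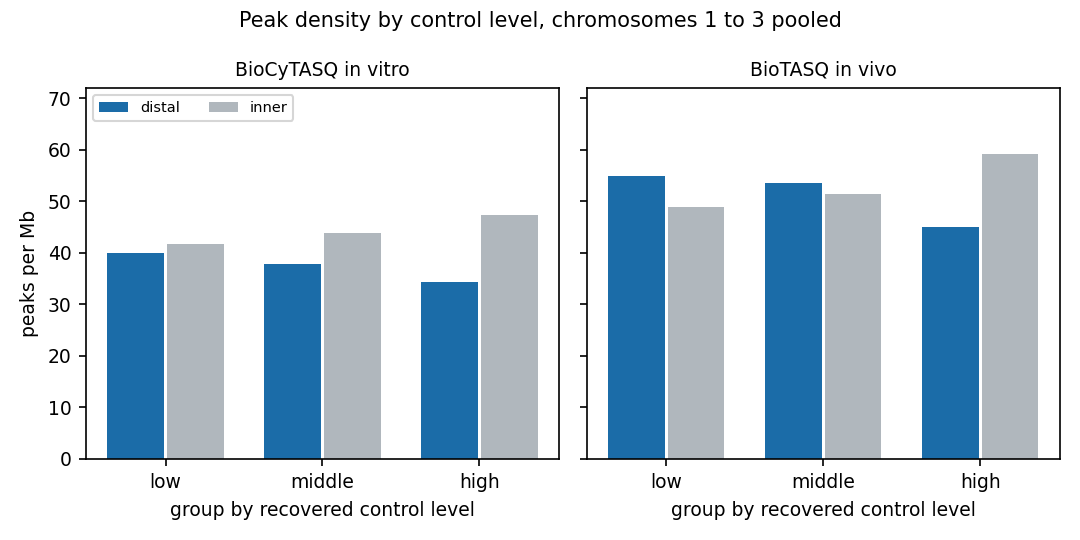
Peaks per Mb (vertical axis, from 0) in 3 groups by the recovered control level, distal in blue and inner in grey, for BioCyTASQ in vitro and BioTASQ in vivo, pooled over chromosomes 1 to 3 and without error bars. The high group shows the widest gap in both panels, 34.4 against 47.3 for BioCyTASQ and 45.0 against 59.1 in vivo.

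Overlap with the BG4/BioTASQ in vitro list was lower in the distal arms within each group as well. For BioCyTASQ it was 3.52% distal and 8.25% inner in the low group, 9.90% and 15.2% in the middle group and 39.8% and 47.5% in the high group. For in vivo peaks it was 12.7% and 17.3%, 13.7% and 19.9%, and 12.4% and 20.2%. BioCyTASQ peaks of the low group lay on an in vivo peak in 52.2% of distal and 39.6% of inner cases, and those of the high group in 80.4% and 81.5%. The middle group had 66.6% and 59.6%. The distal share was thus the higher in the low and middle groups and slightly the lower in the high group. In the other direction, in vivo peaks lay on a BioCyTASQ peak less often in the distal arms in all 3 groups, in 61.9% against 67.5% of the low, 50.5% against 52.9% of the middle and 40.8% against 44% of the high group. These shares within groups were not tested.

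Distal and inner peaks differed little in strength in the BG4/BioTASQ in vitro and in vivo lists. BioCyTASQ peaks had somewhat higher medians in the distal arms, without passing the test. Fold enrichment, the authors' ratio of a peak to its control, had a median of 4.30 ± 0.124 for distal and 3.92 ± 0.243 for inner BioCyTASQ peaks over arm ends (higher at 5 of 6 ends, p = 0.0625, exact permutation, adjusted p = 0.188 over 3 lists). The exception was again the high-coordinate end of chromosome 1, with 4.17 and 4.34. The BG4/BioTASQ in vitro medians were 4.87 and 4.84, and the in vivo medians 4.46 and 4.42 (adjusted p = 0.531 for both, exact permutation). No list passed the test, and a single list at the smallest p could not pass adjustment over 3 lists. With the whole BioCyTASQ list in 3 equal groups by fold enrichment, 40.4% of distal and 33.2% of inner peaks were in the strong group, above a fold enrichment of 4.93, and 27.6% and 32.7% in the weak group, below 3.17.

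Strong and weak peaks overlapped the other lists to different extents, in the distal arms and inside. Of the distal BioCyTASQ peaks, 81.9% of the strong group lay on an in vivo peak and 47.4% of the weak group, while 11.4% of the strong and 24.5% of the weak group touched a BG4/BioTASQ in vitro peak. The inner BioCyTASQ peaks had the same order, with 82.3% and 44.3% on an in vivo peak and 14.2% and 31.4% on a BG4/BioTASQ in vitro peak. Distal in vivo peaks of the strong group lay on a BioCyTASQ peak in 63.4% and on a BG4/BioTASQ in vitro peak in 14.8%, and those of the weak group in 37.9% and 10.4%. Among inner in vivo peaks the strong group reached 69.6% and 23.5%, and the weak group 38.2% and 14.7%. Fold enrichment of overlapping rows comes from controls the sources used here do not name, and the trends over these groups were not tested.

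Median peak widths differed little between the distal and inner stretches. Median widths over arm ends were 401.0 ± 11.1 bp distal and 413.0 ± 10.2 bp inner for BioCyTASQ, 222.0 ± 4.78 and 225.0 ± 8.21 bp in the BG4/BioTASQ in vitro list, and 339.0 ± 7.83 and 342.0 ± 7.55 bp in vivo. None of these differences passed the exact permutation test, with adjusted p of 0.562, 0.656 and 0.656. BioCyTASQ peaks of at least 1500 bp numbered 273 distal (4.51%) and 253 inner (3.44%), and these shares were not tested. The widest distal one, picked after its value was seen, measured 10271 bp on chromosome 2 from 29644009 to 29654279 with a fold enrichment of 11.5.

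In each distal stretch, the region with a peak of every list and the best mean rank by fold enrichment was taken as its leading shared region. On chromosome 1 these were 6348609 to 6350499 and 38220013 to 38220772, the best of 133 and 145 shared regions. At the first, fold enrichments were 6.42 for BioCyTASQ, 7.84 for BG4/BioTASQ in vitro and 6.45 in vivo. At the second they were 10.6, 7.23 and 7.70, the last among the top 0.614% of the in vivo list. This second region had the best mean rank of the 6, 5.22% of a list on average.

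On chromosome 2 the leading shared regions were 3206731 to 3208381 and 33357585 to 33358903. The first had fold enrichments of 9.11 for BioCyTASQ, 6.02 for BG4/BioTASQ in vitro and 7.58 in vivo, and the second 11.3, 9.54 and 5.61. On chromosome 3 they were 3017837 to 3018976, with 9.56, 6.54 and 6.83, and 35380599 to 35381958, with 9.92, 11.2 and 5.72. The in vitro peaks of the regions at 33 and 35 Mb ranked above the in vivo peaks, among the top 1.90% and 3.72% for BioCyTASQ and the top 3.24% and 1.28% for BG4/BioTASQ in vitro, while in vivo they ranked at 17.0% and 15.1%. Ranks are within each list. In these 2 regions, and in the one at 6 Mb of chromosome 1, the BioCyTASQ and BG4/BioTASQ in vitro peaks with these values did not touch each other, and each touched the in vivo peak between them.

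The 3 strongest distal peaks of each list differed in which other lists they touched, and the strength of the touched peaks was not compared. Of the 3 strongest of BioCyTASQ, the one on chromosome 1 (41796571 to 41798839) had a fold enrichment of 17.6. The one on chromosome 3 (33824244 to 33827897) had 17.3, and the one on chromosome 2 (1941744 to 1942302) had 16.7. All 3 lay on an in vivo peak and on no BG4/BioTASQ in vitro peak. They ranked 8, 12 and 24 in the whole list. The 3 strongest of the BG4/BioTASQ in vitro list had 19.4 and 15.3 on chromosome 1 (9638113 to 9638903 and 9809889 to 9810371) and 16.1 on chromosome 3 (32261971 to 32263142). No BioCyTASQ peak touched any of the 3, and the chromosome 3 peak alone lay on an in vivo peak.

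The strongest in vivo peaks of the distal arms ranked lower in their whole list, at 54, 55 and 74. The peak on chromosome 3 (34805482 to 34807658) had a fold enrichment of 9.22, and those on chromosome 2 (7210800 to 7211554 and 26321489 to 26322733) had 9.14 and 8.82. All 3 lay on a BioCyTASQ peak, and both on chromosome 2 also touched a BG4/BioTASQ in vitro peak. The highest in vivo fold enrichment in the inner part of these chromosomes was 10.1. Coordinates are counted from 1 on the build of the deposited lists.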

How the data were processed

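Of 10 rice seedling libraries in 7 groups, 4 peak lists were deposited and 3 were used, since 2 were identical. Per the submitters' processing notes, MACS2 2.1.1, SAMtools 1.5, Picard, BWA and Trim Galore 0.4.4 were used, in unstated roles. Build, control, q threshold and pooling were not given in the sources used here. Deposited columns, in MACS2's narrow-peak order, give the authors' score, fold enrichment (a ratio to the control), −log10 p and −log10 q. In the authors' deposited table, −log10 q started at 1.31 (BioCyTASQ), 3.0 (BG4/BioTASQ in vitro) and 3.01 (in vivo). No read depth was used. The score column was not used further.

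A row belonged to a stretch by its midpoint. The lists named for BG4 and BioTASQ in vitro were identical and used once, without 26 repeated rows. The inner part was split at its middle, and each distal stretch was paired with its adjoining section. Differences over the 6 arm ends were tested by exact sign-flip permutation (64 assignments, two-sided), with Benjamini-Hochberg adjustment within each kind of measure, at 0.05. Pileup and control level were solved from fold enrichment and −log10 p under MACS2's Poisson formulas. Whole pileups came out for 100% of BioCyTASQ and in vivo rows on chromosomes 1 to 3, within 0.001 of −log10 p. They were not solved for the other list.

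Named regions were the best shared region per distal stretch by mean rank, the 3 strongest peaks per list at most 1 per 100 kb, and the 1 Mb windows with most and fewest regions. Stretches, rules and tests were chosen with earlier results of these data known. Steps were tested on simulated data. Software was SciPy 1.17.1, pandas 2.3.3, NumPy 2.4.6 and Matplotlib 3.10.9 under Python 3.11.15.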

Additional observations from a re-analysis of the deposited data

How the results depend on the processing

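The 19 results were recomputed under 6 to 10 of 13 alternatives each, and 123 values kept direction and side of the threshold. Values are distal minus inner. With the outer 4 Mb alone the density differences per Mb were −26.9 for BioCyTASQ, −19.7 for BG4/BioTASQ in vitro and −11.8 in vivo. With 2 Mb either side of the boundary left out they were −25.9, −19.4 and −4.65. Both in vitro calls held there, and the in vivo difference did not pass. Whether an overlap passed after adjustment depended on how many of the 6 overlaps reached the smallest p. The 4 overlaps with the BG4/BioTASQ in vitro list passed after adjustment under 5 alternatives. For BioCyTASQ peaks on BG4/BioTASQ in vitro peaks they were −9.60 percentage points with 2 Mb either side of the boundary left out, −8.88 with the outer 4 Mb alone, −7.98 with the inner part not split, −7.04 at a −log10 q of at least 5 and −3.16 at 50% reciprocal overlap. In the same order, BG4/BioTASQ in vitro peaks on BioCyTASQ peaks gave −15.2, −13.9, −11.9, −9.96 and −4.44, BG4/BioTASQ in vitro peaks on in vivo peaks −8.79, −8.81, −7.13, −6.89 and −2.75, and in vivo peaks on BG4/BioTASQ in vitro peaks −7.99, −7.54, −6.37, −5.69 and −2.29. BioCyTASQ peaks on in vivo peaks passed with the inner part not split (4.46), and in vivo peaks on BioCyTASQ peaks at 50% reciprocal overlap (−3.47). Calls were lost for regions of all lists with 200 bp windows (−1.80). As bases covered, they were lost for the densities of BioCyTASQ (−1.04 percentage points) and BG4/BioTASQ in vitro (−0.54). The latter was still lower at 6 of 6 ends, with p = 0.0312 before adjustment (exact permutation). Signs turned, in results that did not pass, for the BG4/BioTASQ in vitro fold enrichment without centromere windows (−0.0254), for in vivo peaks on BioCyTASQ peaks relative to the covered share (0.109 on the log2 scale) and for the in vivo density by spanned peak numbers (8.92 per Mb). The cause was not tested.

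No paired analysis was possible because the lists carry no replicate numbers; this concerns libraries, while arm ends were paired by position in every test. Read depth was not used, and 6 arm ends allow no p below 0.03125 (exact permutation), so a missed threshold does not show equal values.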
